A study of Mus musculus with 3 samples.

Results

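Epithelial-mesenchymal transition (EMT) regulators and the genes of the cadherin switch were followed across 3 arrays of sorted 4T1 breast cancer cells. The members were 10 genes taken by symbol: the transcription factors Snai1, Snai2, Twist1, Twist2, Zeb1 and Zeb2, the cadherins Cdh1 and Cdh2, the intermediate filament gene Vim and the splicing regulator Esrp1. Of these, 9 had a probe, with 14 probes among the 25697 of the array, and 8 were detected on at least 1 array, among 9082 genes detected in all. No probe was matched here to Snai2.

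The cells were 4T1, a mammary carcinoma line of BALB/c mice that metastasises spontaneously to lung. They carried a GFP label and were placed in the mammary pads of female Balb/C mice, 10 to 12 weeks old. Cancer cells were then sorted by flow cytometry from metastatic loci in lung (MCC), from the systemic circulation (CCC) and from the primary tumour (PCC), with 1 array for each site. All 3 groups therefore share 1 cell line and the GFP label, and the number of mice pooled for each sort is unknown here. There are no replicates, so the differences below have no replicate check, no error and no p-value between sites.

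In EMT, epithelial cells give up their junctions and gain motility. The Snail, Twist and Zeb families are the transcription factors best known for driving it; Snail and Zeb proteins repress Cdh1 by binding E-boxes, the 6-base CANNTG elements that Twist proteins also recognise. The cadherin switch is the exchange of E-cadherin (Cdh1) for N-cadherin (Cdh2), and a gain of vimentin usually goes with it. Esrp1 keeps epithelial exon choices in genes such as Cd44 and Fgfr2, and Zeb proteins are known to repress it.

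A probe was called detected on an array at a detection p under 0.01 as deposited for that probe, and levels are log2 intensities after background correction and quantile normalization. The lowest detected level was 5.60 on MCC, 5.54 on CCC and 5.88 on PCC, which is the floor for what follows. Between 41.0% and 44.6% of probes were detected on an array. Where both arrays detected a gene, levels correlated at 0.737 for MCC with PCC and 0.938 for CCC with PCC, so MCC stood further from the tumour array (genes are not independent replicates). Fat cell markers also set MCC apart, with 5 of 7 genes detected on MCC, 1 on CCC and 0 on PCC. The lung markers were divided. Sftpc of alveolar type II cells, Scgb1a1 of club cells, Sftpa1 and Sftpb were not detected on any array. Ager of alveolar type I cells, Cyp2f2 (7.40) and Sftpd, which lay at the floor, were detected on MCC alone, and Abca3 on all 3 arrays. In total 4 of 8 lung genes were detected on MCC, 1 on CCC and 1 on PCC. Lymphocyte and endothelial genes were also bright on MCC. With lung genes divided, the label of the MCC array could not be checked further with 1 array. Every MCC value below is therefore that of the array labelled as lung metastasis. The epithelial keratins Krt8 and Krt18 that mark 4T1 cells were detected on all 3 arrays. In bulk RNA, fewer cells of a type and less RNA per cell cannot be told apart.

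Snai1, the founding Snail family repressor of Cdh1, was the member that lay furthest below its PCC level on the array labelled MCC. Its bright probe read 5.82 on MCC, 8.47 on CCC and 9.09 on PCC. The MCC level lay just above the floor, with a detection p of 0.00627, while CCC and PCC lay well above it. Snai1 was 9.67-fold lower on MCC than on PCC (log2 difference -3.27), rank 81 from the lowest of 6829 genes detected on both. On CCC it was 1.54-fold lower than on PCC (-0.63). The second Snai1 probe read 4.79, 5.45 and 5.29 on MCC, CCC and PCC and was not detected on any array (detection p 0.174, 0.0175 and 0.0551). It therefore neither repeats nor contradicts the bright probe.

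Vim, the intermediate filament of mesenchymal cells, leukocytes and endothelium, was also lower on MCC. Its single probe read 10.91 on MCC, 12.45 on CCC and 12.06 on PCC, far above the floor on each. Vim was 2.22-fold lower on MCC than on PCC (-1.15) and 1.31-fold higher on CCC than on PCC (0.39). Snai1 and Vim are thus the 2 members that were at least 2-fold lower on MCC than on both other arrays.

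The promoter windows of Snai1 and Vim are shown because they were low together on MCC, and that of Twist1 because it was high on CCC. They come from RefSeq on GRCm38.p6, run 5′ to 3′ from 250 bases before the start site to 50 bases after it, and all lie on the plus strand, at chr2:167537945-167538244, chr2:13574061-13574360 and chr12:33957421-33957720. Capitals mark E-boxes (CANNTG, a motif that reads the same on both strands by its fixed letters).
Snai1: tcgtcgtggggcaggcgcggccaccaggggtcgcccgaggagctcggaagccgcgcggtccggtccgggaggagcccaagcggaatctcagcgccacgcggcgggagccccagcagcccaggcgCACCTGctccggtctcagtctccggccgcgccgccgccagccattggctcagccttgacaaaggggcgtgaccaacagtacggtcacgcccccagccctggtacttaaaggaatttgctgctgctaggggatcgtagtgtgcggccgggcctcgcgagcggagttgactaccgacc
Vim: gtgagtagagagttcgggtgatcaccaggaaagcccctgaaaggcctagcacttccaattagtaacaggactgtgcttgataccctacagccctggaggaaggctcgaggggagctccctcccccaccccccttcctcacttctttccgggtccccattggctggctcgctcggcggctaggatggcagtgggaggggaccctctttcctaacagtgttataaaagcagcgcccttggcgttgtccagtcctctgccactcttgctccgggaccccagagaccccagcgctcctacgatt
Twist1: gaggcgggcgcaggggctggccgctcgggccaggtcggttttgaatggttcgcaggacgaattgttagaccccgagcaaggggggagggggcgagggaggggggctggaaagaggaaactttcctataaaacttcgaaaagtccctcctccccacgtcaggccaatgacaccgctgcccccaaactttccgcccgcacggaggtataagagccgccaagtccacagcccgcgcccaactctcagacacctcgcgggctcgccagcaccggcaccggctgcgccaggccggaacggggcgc
The Snai1 window held 1 E-box, CACCTG, whose first base is at -126 from the start site. It is of the CACCTG or CAGGTG form that Snail and Zeb proteins bind best. The Vim and Twist1 windows held 0, as did the windows of Twist2 and Zeb2, the other members the table lists. Of 32851 windows of the same length, 72.3% held a CANNTG and 20.2% held CACCTG or CAGGTG. A match is a description of letters and not a binding site.

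Twist1, a basic helix-loop-helix factor of mesoderm and cranial mesenchyme, was higher on both arrays taken outside the tumour. It read 6.94 on MCC, 7.27 on CCC and 5.98 on PCC, where it lay close to the floor (detection p 0.00501). Twist1 was 1.94-fold higher on MCC than on PCC (0.95) and 2.45-fold higher on CCC than on PCC (1.29). MCC and CCC differed by -0.34, less than the median disagreement of 0.41 between probes of 1 gene in that pair. Twist2, its close relative of dermis and other connective tissue, was detected on MCC alone. It read 6.29 on MCC, 5.29 on CCC and 4.79 on PCC, with detection p-values of 0.0363 on CCC and 0.231 on PCC. Twist2 was at least 1.33-fold higher on MCC than on PCC and at least 1.68-fold higher than on CCC. A bound of this kind sets the detected level against the floor of the other array, or against the probe's own value there if that is higher.

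Zeb1, a zinc finger and homeobox repressor that T lymphocytes and stromal cells also express, followed the order MCC, CCC, PCC. It read 9.29 on MCC, 7.30 on CCC and 5.59 on PCC, where it was not detected (detection p 0.0238). Zeb1 was at least 10.6-fold higher on MCC and at least 2.67-fold higher on CCC than on PCC. Between MCC and CCC, both detected, it was 3.98-fold higher on MCC (1.99). Deposited intensities of the same probe, before any step taken here, were 399 on MCC, 181 on CCC and 29.2 on PCC.

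Zeb2, its relative in neural crest and myeloid cells, was nearly level. Its bright probe read 10.07 on MCC, 10.19 on CCC and 10.43 on PCC. Zeb2 was 1.29-fold lower on MCC than on PCC (-0.36) and 1.19-fold lower on CCC than on PCC (-0.25), against medians of -0.16 and -0.10 over all genes. Its second probe was at background on all 3 arrays, at 4.61, 4.56 and 4.58. The 2 Zeb genes therefore parted on MCC and on CCC, where only the probe of Zeb1 was high relative to PCC.

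Cdh1, the calcium-dependent adhesion molecule of epithelial adherens junctions, was highest on MCC. Its probe read 9.20 on MCC, 7.78 on CCC and 7.09 on PCC, and it was detected on all 3. Cdh1 was 4.32-fold higher on MCC than on PCC (2.11), with 4.80% of the 6829 genes higher still, and 1.62-fold higher on CCC than on PCC (0.69). It was 2.67-fold higher on MCC than on CCC (1.42).

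Cdh2, the N-cadherin of neural and mesenchymal cells, was not detected on any array. Its 4 probes read between 4.47 and 4.77 on MCC, between 4.48 and 4.58 on CCC and between 4.46 and 4.67 on PCC, all under the floor. The lowest detection p among the 12 readings was 0.183, on MCC. The N-cadherin side of the switch was thus below what these probes could measure at every site, and no fold is given for it.

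Esrp1 had the largest difference of all members. It read 10.28 on MCC, 5.32 on CCC and 4.60 on PCC, and was detected on MCC alone. Detection p was 0.0326 on CCC and 0.472 on PCC. Esrp1 was at least 21.0-fold higher on MCC than on PCC and at least 26.6-fold higher than on CCC, the second bound being larger because the floor of CCC is lower. Esrp2, its paralogue, read 5.62 on MCC, just above the floor, and was not detected on CCC or PCC.

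**Figure D1:**
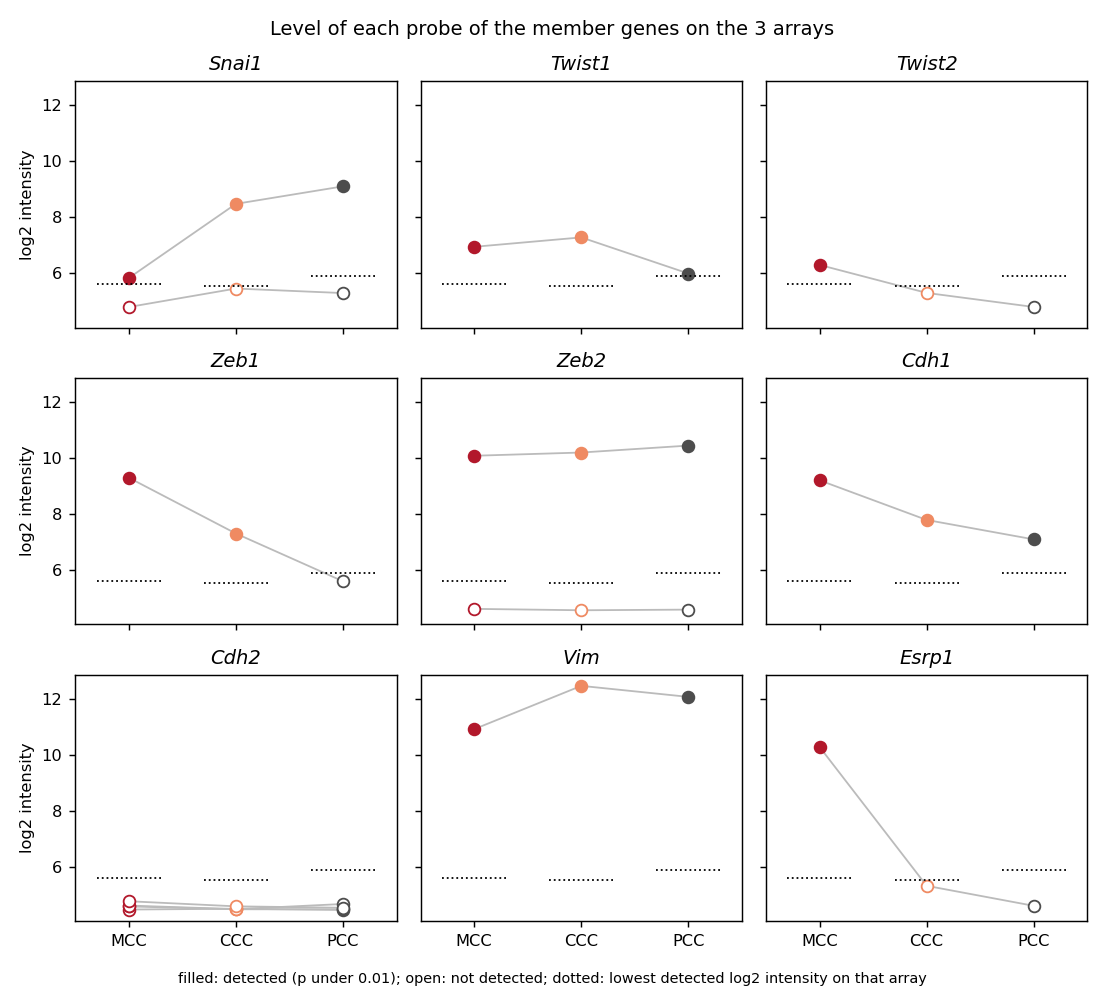
Log2 intensity (vertical axis) of every probe of the 9 member genes that have one, on the MCC, CCC and PCC arrays; each line joins 1 probe, filled points are detected and open points are not, and dotted lines mark the lowest detected level of each array. Cdh1, Zeb1 and Esrp1 were highest on MCC, Snai1 and Vim lowest there, and all 4 Cdh2 probes lay under the dotted lines.

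Set together for MCC against PCC, 3 of the 8 members detected on either were at least 2-fold higher on MCC (Cdh1, Zeb1 and Esrp1). At least 2-fold lower were 2 (Snai1 and Vim). The other 3 did not pass 2-fold, and for Twist2 the value is only a lower bound, so its difference may be larger. Over all 8862 genes detected on either array, 18.0% were at least 2-fold higher on MCC and 19.8% at least 2-fold lower by the same rule. Zeb1, Esrp1 and Twist2 were detected on MCC alone in this pair, which fixes their direction. The median over the 5 members detected on both was -0.36, against -0.16 over all genes. The members higher on MCC came from both sides: Cdh1 and Esrp1 of the epithelial side, and Zeb1, which represses both in other systems. The 2 lower members, Snai1 and Vim, are both of the mesenchymal side.

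For CCC against PCC, 2 of 6 members detected on either array were at least 2-fold higher on CCC (Twist1 and Zeb1) and 0 were at least 2-fold lower. Over all 8267 genes, 6.34% were at least 2-fold higher on CCC and 3.68% at least 2-fold lower. Zeb1 was detected on CCC alone in this pair, which fixes its direction. The other 4, Snai1, Zeb2, Cdh1 and Vim, lay within 2-fold. The median over the 5 members detected on both was 0.39, against -0.10 over all genes.

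For MCC against CCC, 3 of 8 members were at least 2-fold higher on MCC (Zeb1, Cdh1 and Esrp1) and 2 at least 2-fold lower (Snai1 by 6.27-fold and Vim by 2.92-fold). The shares over 8957 genes were 18.2% higher and 16.4% lower. Esrp1 and Twist2 were detected on MCC alone in this pair, which fixes their direction. All 5 of these genes are also the 5 past 2-fold for MCC against PCC, but the 2 comparisons share the MCC array.

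A scale for these differences came from genes with several detected probes, for which each probe gives its own difference. Such a scale holds disagreement between probes on the same arrays, and no variation between repeated arrays, sorts or mice. The range between probes of 1 gene had a 95th percentile of 1.41 (log2) for MCC minus PCC over 1560 genes, 0.78 for CCC minus PCC over 1784 genes and 1.66 for MCC minus CCC over 1670 genes. Snai1 and Cdh1 on MCC against PCC exceeded it, and so did Zeb1 and Esrp1 by their bounds. Vim, at -1.15, and Twist1, at 0.95, did not. On CCC against PCC, Twist1 and Zeb1 exceeded it, while Cdh1 (0.69), Snai1 (-0.63), Vim (0.39) and Zeb2 (-0.25) lay inside it. On MCC against CCC, Snai1, Zeb1 and Esrp1 exceeded it, and Cdh1 (1.42) and Vim (-1.55) lay inside it.

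A log2 shift common to all genes of an array cancels in the difference of Cdh1 relative to Vim, which was added after the values had been seen. Background correction and quantile normalization do not cancel, and for MCC minus PCC it ran from 3.01 to 3.63 over the settings. Cdh1 gained 3.26 log2 units over Vim on MCC relative to PCC, a factor of 9.60, and 2.96 on MCC relative to CCC. On CCC relative to PCC it gained 0.30. Against Snai1, Cdh1 gained 5.38 on MCC and 1.32 on CCC, both relative to PCC. These are unequal differences of 2 genes and do not show that either gene stayed level.

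**Figure D2:**
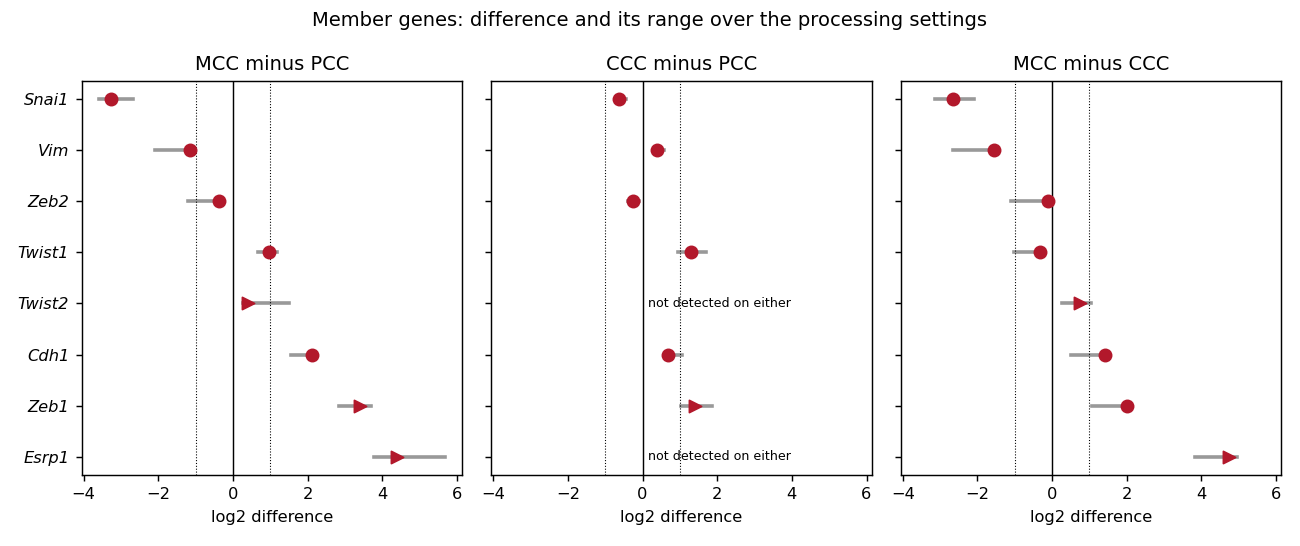
Log2 difference (horizontal axis) of the 8 detected members in the 3 pairs of arrays; points are differences of genes detected on both arrays, triangles are lower bounds, grey bars span all processing settings tried and dotted lines mark 2-fold. Esrp1, Zeb1 and Cdh1 lay right of 2-fold and Snai1 and Vim left of it on MCC against PCC.

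Zeb1 and Cdh1 kept the order MCC, CCC, PCC under every setting that gave them a value. The size of the MCC to CCC gap did not hold as well. Without normalization between arrays the log2 difference of MCC minus CCC was 0.50 for Cdh1 and 1.08 for Zeb1. The median of all genes was then -0.83 in that pair, so both stood above it. In the same setting MCC minus PCC was -2.08 for Vim and -1.19 for Zeb2, with a median of all genes of -0.75.

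Other transcription factors tied to EMT were mixed. Of 17 on the list 14 had a probe and 10 were detected on MCC or PCC. Among these 10, 3 were at least 2-fold higher on MCC and 4 at least 2-fold lower, beside 18.0% and 19.8% over all genes. Ets1, a lymphoid and endothelial factor that also binds EMT gene promoters, was 6.86-fold higher, and the T-box factor Tbx3 at least 5.70-fold higher. Sox9, a stem cell and cartilage factor, was 17.4-fold lower and the forkhead factor Foxc1 at least 20.9-fold lower. Snai3, the third Snail gene, read 7.42 on MCC, 5.22 on CCC and 5.87 on PCC, and was detected on MCC alone, at least 2.91-fold higher than on PCC. Snai1 and Snai3 therefore lay in opposite directions on MCC. On CCC against PCC, 0 of 7 detected factors were at least 2-fold higher and 1 was lower, Sox9 by 2.39-fold. The shares over all genes in that pair were 6.34% higher and 3.68% lower. The shares of both pairs apply to each list below, except for counts given under another processing setting.

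The ID proteins, which bind the partners of Twist factors and block their dimers, were 3 detected genes of 4. Id2 read 8.54 on MCC, 8.56 on CCC and 6.75 on PCC, and so was 3.46-fold higher on MCC and 3.52-fold higher on CCC than on PCC. Id2 and Twist1 shared the pattern of 2 higher arrays and a lower PCC. Id1 lay within 2-fold in both pairs, at 1.14-fold lower on MCC and 1.22-fold lower on CCC.

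Of 13 epithelial transcription factors, which hold cells in the epithelial state, 9 were detected on MCC and 4 on PCC. The median over the 4 detected on both was -0.79. The other 5 were detected on MCC alone and so could only come out higher there. Of these, 4 passed 2-fold: Foxa1 (at least 9.62-fold), Grhl1, Elf3 and Elf5, beside 18.0% of all genes. Grhl2, which sustains Cdh1 transcription, read 6.56 on MCC and was undetected on CCC and PCC, at least 1.60-fold higher on MCC than on PCC. Among factors detected on PCC, Klf4 was 10.9-fold lower on MCC, and Ovol2, a repressor of Zeb1, was 1.21-fold higher. On CCC against PCC, Klf4 was 2.21-fold lower and 0 of 4 were at least 2-fold higher.

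Splicing regulators other than Esrp1 differed little. Of 9 detected on MCC or PCC, 7 lay within 2-fold or had no bound, Mbnl1 was 2.63-fold higher on MCC and Rbfox2, which favours mesenchymal exons, was 3.69-fold lower. Without normalization 4 were at least 2-fold lower on MCC and 0 higher. In that setting 3084 of 8861 genes were at least 2-fold lower on MCC and 1022 higher. Rbm47, an epithelial splicing factor also made by myeloid cells, was 2.04-fold higher on CCC than on PCC. Esrp1 therefore stood alone in this group in the size of its difference on MCC.

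The catenins, which tie cadherins to actin, did not follow Cdh1. Ctnnb1 (beta-catenin) read 11.57 on MCC, 12.56 on CCC and 12.60 on PCC, and Ctnna1 (alpha-catenin) 11.97, 12.79 and 13.11. On MCC both were lower than on PCC, Ctnna1 by 2.20-fold and Ctnnb1 by 2.05-fold, while Cdh1 was higher. Of 6 detected genes of the adherens junction 4 were at least 2-fold lower on MCC and 0 higher, with Ctnnal1 lowest at 7.42-fold. That stands beside 19.8% lower and 18.0% higher over all genes. On CCC, Nectin3 was at least 3.88-fold higher than on PCC. Plakoglobin (Jup) and p120 (Ctnnd1) were not detected on any array.

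Of 10 other cadherins with a probe 2 were detected, both on MCC and CCC and neither on PCC. The endothelial cadherin Cdh5 read 7.88 on MCC, 5.70 on CCC and 5.03 on PCC, and Cdh13, also of vessels, 8.22, 6.22 and 5.06. They were at least 3.99-fold and 5.07-fold higher on MCC than on PCC. Neither was detected on PCC, so both could only come out higher on the other arrays. Cdh3 and Cdh11, the cadherins of myoepithelium and mesenchyme, were not detected on any array. Endothelial markers were higher in parallel, with 8 of 9 detected on MCC, 8 on CCC and 5 on PCC. Cdh5 is itself on that marker list, so the groups share a gene. The part of endothelial cells in this result was not tested.

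Intermediate filament genes other than Vim numbered 9 detected on MCC or PCC. Of these, 6 were at least 2-fold higher on MCC and 1 lower, beside 18.0% and 19.8% over all genes. Only Krt8 and Krt18 were detected on both arrays; the others were detected on 1, which fixes their direction, and the median of the pair, 0.16, changed sign with the scaling. Krt7, Krt14 and Krt19, all undetected on PCC, were at least 13.6-fold, 13.5-fold and 11.6-fold higher on MCC, and Krt17 at least 3.06-fold higher. Krt14 and Krt17 mark basal and Krt7 and Krt19 luminal cells of the mammary gland. Krt18 was 2.23-fold higher and its partner Krt8 1.78-fold lower, and nestin (Nes) was detected on PCC and not on MCC, at least 4.36-fold lower. The desmin gene (Des), a muscle filament, was at least 5.23-fold higher. On CCC 0 of 5 detected genes were past 2-fold in either direction.

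Epithelial junction and polarity genes lay on both sides. Of 14 detected on MCC or PCC, 13 were detected on MCC and 6 on PCC, and the median over the 5 detected on both was -0.32. At least 2-fold higher on MCC were 4 of the 14, and 2 were lower, beside 18.0% and 19.8% of all genes. Genes detected on MCC alone could only come out higher there. Cldn4 was 25.6-fold higher on MCC, Cldn3 at least 8.03-fold, Llgl2, a polarity gene that Zeb1 represses, 3.81-fold and the serine protease St14 at least 3.09-fold. In the other direction Tjp1 (ZO-1) was 3.53-fold and Patj 2.01-fold lower. Occludin (Ocln), a classic Snail target, was not detected on any array. On CCC against PCC 0 were at least 2-fold higher and Patj was 2.85-fold lower, while Llgl2 was 1.87-fold higher. Under 75th percentile scaling 7 of these genes were at least 2-fold higher on MCC than on PCC and 1 lower, beside 1577 and 1856 of 8861 genes. With no further background correction, and with an offset of 50, the counts were 4 and 1.

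Mesenchymal products differed between the 2 sites outside the tumour. Of 17 detected on MCC or PCC, 4 were at least 2-fold higher on MCC and 7 lower, with a median of -0.66 over 15 detected on both. Of 16 detected on CCC or PCC, 7 were at least 2-fold higher on CCC and 0 lower, with a median of 0.22. The shares over all genes were 18.0% higher and 19.8% lower on MCC, and 6.34% higher and 3.68% lower on CCC. Smooth muscle actin Acta2 was higher on both, 30.4-fold on MCC and 10.5-fold on CCC. Cd44, whose exons Esrp1 selects, was 3.92-fold lower on MCC and 1.79-fold lower on CCC, on probes that were not matched to exons. S100a4 was 5.01-fold higher on CCC and 2.55-fold lower on MCC. The protease Mmp3 was 17.2-fold lower on MCC, and the receptor kinase Axl, which accompanies EMT in many carcinomas, was 4.01-fold lower there and 1.02-fold higher on CCC. Col1a2 was at least 5.20-fold higher on CCC, where it read 8.26 against 4.77 on PCC. Collagens and Acta2 are also on the fibroblast and smooth muscle marker lists, so the groups share genes.

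TGF-beta is the signal best known for inducing Snail and Zeb genes, and its list mixes ligands, receptors, transducers and inhibitors. Of 15 genes detected on MCC or PCC, 7 were at least 2-fold lower on MCC and 3 higher, beside 19.8% lower and 18.0% higher over all genes. The median over 12 detected on both was -0.86. The 3 higher became 1 with no further background correction, with an offset of 50 and without normalization. The lower genes then numbered 6, 6 and 9. Over all genes those settings gave 1500, 1396 and 1022 higher, of 8861, 8862 and 8861. Lower over all genes were 1607, 1434 and 3084. Inhba, which encodes an activin subunit, was at least 28.6-fold lower, and Smad3, the transducer, 3.65-fold lower. The inhibitors Tgif1, Skil and Smad6 were lower too, by 7.09-fold, 3.79-fold and 2.11-fold. Tgfb1 was 2.02-fold higher on MCC and 1.23-fold lower on CCC. The co-receptor Tgfbr3 was 3.48-fold higher on MCC, and Bmp4 at least 2.15-fold. On CCC 13 of 15 did not pass 2-fold, among them Bmp7 by a lower bound only and Tgfb2 with no bound. Tgfbr2 was 2.22-fold higher and Inhba 2.65-fold lower.

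**Figure D3:**
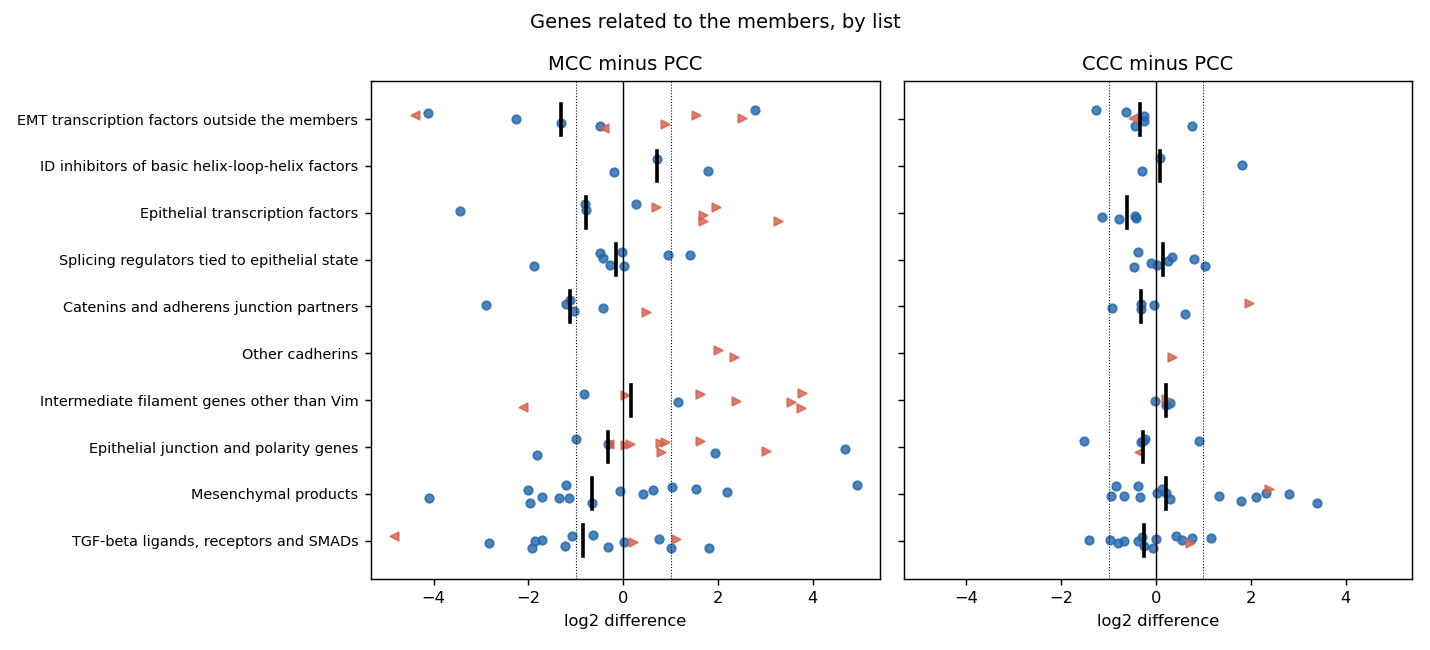
Log2 difference (horizontal axis) of every gene of 10 related lists, for MCC minus PCC (left) and CCC minus PCC (right); circles are genes detected on both arrays, triangles are lower bounds for genes detected on 1, black bars are medians over the circles and dotted lines mark 2-fold. On MCC most catenins lay to the left of 2-fold, right-pointing triangles are genes undetected on PCC and so lie right of 0 by construction, and on CCC most genes lay between the dotted lines.

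Markers of other cells were read beside the members, as sums of deposited intensities over each list. These sums are not normalized, and the mean intensity was 232 on MCC, 462 on CCC and 410 on PCC. Lymphocyte genes summed to 14162 on MCC, 4231 on CCC and 550 on PCC, with 8 of 8 detected on MCC and CCC and 4 on PCC. Endothelial genes summed to 6392, 2660 and 1046 in the same order, and those of smooth muscle to 3439, 2472 and 166. These 3 lists were highest on MCC and lowest on PCC, as were Zeb1 and Cdh1. The same order held for fat cell genes, given below, and for lung epithelial genes, at 1131, 1047 and 511. Twist2 and Esrp1 were detected on MCC alone. The B cell gene Cd79b was not detected on PCC, nor were Cdh5 of endothelium or Myh11 and Des of smooth muscle. Kdr and Cnn1, defining genes of endothelium and smooth muscle, were not detected on any array.

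Fat cell genes were the most lopsided, with 18312 on MCC, 205 on CCC and 19.8 on PCC, and Adipoq, Plin1 and Cidec were detected on MCC alone. Macrophage genes were highest on CCC, at 5399 on MCC, 24536 on CCC and 4132 on PCC, and Adgre1 and C1qa were detected on all 3. Twist1 and Vim were likewise highest on CCC. Fibroblast genes summed to 10733, 14769 and 12998 on MCC, CCC and PCC, and all defining genes, Col1a1, Col3a1 and Dcn, were detected on each. After normalization 4 of 9 fibroblast genes were at least 2-fold higher on MCC than on PCC and 1 was lower, with Thy1 27.0-fold and Col3a1 4.54-fold higher and Pdgfra 6.68-fold lower. Of 8 mammary epithelial genes 6 were detected on MCC, 4 on CCC and 3 on PCC, with sums of 4463, 8832 and 9677. After normalization 3 of 6 were at least 2-fold higher on MCC than on PCC and 1 was lower. For the fibroblast and mammary counts, the shares over all genes were 18.0% higher and 19.8% lower. Krt5 and Krt14 were detected on MCC alone, and Krt8 was dimmest there. The part that these cell types had in the levels of Zeb1, Twist1, Twist2, Vim, Cdh1 and Esrp1 was not tested.

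Neutrophil genes were detected in 3 of 7 on every array, and these did not run 1 way. S100a8 read 6.42 on MCC, 10.62 on CCC and 11.25 on PCC, and S100a9 5.62, 9.76 and 10.51, while Ltf, which glandular epithelium also makes, read 11.99, 7.02 and 6.30. Lung epithelial genes were detected in 4 of 8 on MCC, 1 on CCC and 1 on PCC, platelet genes in 2, 1 and 1 of 5, red blood cell genes in 2, 1 and 2 of 3, and dendritic cell genes in 1, 0 and 0 of 5.

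**Figure D4:**
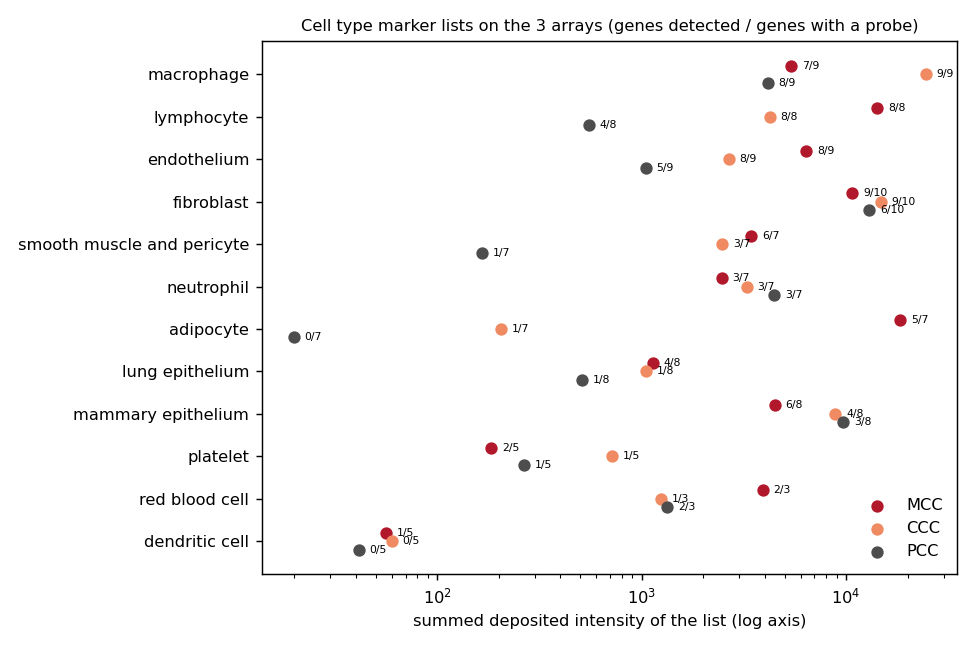
Summed deposited intensity (log axis) of each cell type marker list on the MCC, CCC and PCC arrays, with the number of genes detected of those with a probe beside each point. Lymphocyte, endothelial, smooth muscle, fat, lung and red blood cell lists were highest on MCC, and macrophage, fibroblast, platelet and dendritic cell lists on CCC.

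For each member detected on all 3 arrays, the 3 genes with the nearest pattern were found among 6753 genes, by the distance between log2 levels centred on their own mean. With 3 values per gene, near matches are common. Cdh1 lay closest to Sgms1 (distance 0.03), Traf1 (0.05) and Ifnar2 (0.07), and 43 genes lay within 0.25. Snai1 lay closest to Scara3 (0.06), Lhfp (0.09) and Flywch2 (0.11), with 25 genes within 0.25. Twist1 lay closest to the cytokine gene Osm (0.04), Mapre2 (0.06) and Syngr2 (0.10), with 23 within that distance. Vim had 147 such genes, led by Tfdp1, Ube2l6 and Pno1, and the nearly level Zeb2 had 836, led by Eif3j1, Eif1b and Cdc42.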

How the data were processed

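RNA of sorted 4T1 cells was hybridised as biotin-labelled cRNA to Illumina mouse BeadChips, 1 array per site. The authors deposited probe intensities from GenomeStudio, as the submitters' processing notes name it without a version. Between 24.0% and 28.3% of them are negative, which plain scanner readings are not. Detection p-values, 1 column to an array, were deposited beside the intensities. The authors' second intensity table is a straight line of the first per array (largest residual 0.0131), on a linear scale, with column medians of 35.1 on MCC, 32.0 on CCC and 42.9 on PCC; how its lines were set is not stated in the labels.

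Deposited intensities were background-corrected with negative controls inferred from the detection p-values, given an offset of 16, quantile-normalized and put on the log2 scale (neqc, limma 3.58.1, R 4.3.3). Counts and figures were made in Python 3.11.15 (pandas 2.3.3, numpy 2.4.6, matplotlib 3.10.9). Of 25697 probes 23978 have 1 gene symbol, 0 have several and 1719 are unnamed here; 23962 were matched by gene ID to RefSeq (GRCm38.p6). A gene was read from its brightest detected probe (detection p under 0.01), and genes were counted at 2-fold. The array count, 1 per group, limits the precision, and depth has no meaning here beyond signal over background. The counting step was tested on simulated data.

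The members, the 10 related lists (141 genes), the 12 marker lists and the rule for named genes (all members, each list's extremes per pair, defining markers and a fixed set) were chosen with earlier results of these data known. Of the fixed set, Epcam, Fn1 and Tcf3 had no probe matched here. Individual genes named beyond that rule were chosen after their values were seen. Alternatives changed the background, offset, scaling, table, detection filter and probe rule.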

Additional observations from a re-analysis of the deposited data

How the results depend on the processing

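Of 245 recomputed member values 230 moved by less than 1.5-fold, and every one kept its sign. Those that moved are given as log2 differences. With an offset of 50 in the background step Snai1 was -2.68 on MCC minus PCC, Esrp1 3.78 on MCC minus PCC and 3.98 on MCC minus CCC, and Cdh1 relative to Snai1 4.55 and 3.39 in those pairs. That step pulls dim values together. Without normalization between arrays the values for MCC minus PCC were -2.08 for Vim and -1.19 for Zeb2. For MCC minus CCC they were 1.08 for Zeb1, 0.50 for Cdh1, 3.82 for Esrp1, -2.64 for Vim, -1.03 for Twist1 and -1.09 for Zeb2. The array means, 232 on MCC, 462 on CCC and 410 on PCC, then remain in the differences. With no filter on dim probes the bounds of Twist2 and Esrp1 on MCC minus PCC became differences of 1.50 and 5.67.

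Member counts moved in 5 of 54 cases. With an offset of 50, 1 member was at least 2-fold higher on CCC than on PCC, since Twist1 was then at 0.96. Without normalization 4 were at least 2-fold lower on MCC than on CCC. Among only probes detected on all 3 arrays, 1 member was higher in each of the 3 pairs, since Zeb1 and Esrp1 are left out.

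Over all genes, counts passed 1.5 times in these cases. Without normalization, 1022 were higher and 3084 lower on MCC than on PCC (main 1594 and 1754), 809 and 140 on CCC than on PCC (524 and 304), and 639 and 3555 on MCC than on CCC (1631 and 1465). The higher share was then 24.9%, 85.2% and 15.2%, against 47.6%, 63.3% and 52.7%. With an offset of 50, 164 were lower on CCC than on PCC, and the higher share was 72.1%. Among only probes detected on all 3 arrays 961, 342 and 924 were higher in the 3 pairs. Of 234 list counts 39 moved, and of 162 list medians 9. The median of the intermediate filament list on MCC minus PCC, 0.16, was -0.29, -0.79 and -0.09 under 75th percentile scaling, no normalization and the authors' table. No paired analysis was possible because each group has 1 array. With 1 array per site no array can be left out, and dim probes such as Twist2, and Twist1 on PCC, are limited by signal over background.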
